A study of Mus musculus with 2 samples.

Results

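The subject here is a set of 890 unannotated splice forms that recurred in both long-read libraries of mouse adrenal gland. Each was classed NIC, the class for transcripts whose splice sites are all in the catalogue while their combination is not. A form was kept when its intron chain (chromosome, strand and every intron boundary) had at least 2 reads in each library. The 890 chains came from 14873 NIC chains found in either library, and they lay in 700 genes; 6 of them were given different genes in the 2 libraries. The chains were thus chosen by their read counts in these libraries, so their presence and level are given as a description. Each chain was then sorted by exon skipping, intron retention or another change against the annotated form of its gene with which it shared most introns.

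The study has 1 group of 2 libraries, replicate 1 and replicate 2, from the whole adrenal gland of male B6CASTF1/J mice aged 36 days. B6CASTF1/J mice are F1 hybrids with a C57BL/6J and a CAST/EiJ parent; no other allele and no treatment is named, so no condition is compared. Label fields differ on whether the libraries come from separate animals, and the spread between them may be technical. A gland of unsorted cells was used, so a form's share is an average over cell types.

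Pre-mRNA is cut at a donor site at the start of each intron and at an acceptor site at its end. A cell can join the same set of sites in different ways: it can leave out an exon, keep an intron, use a neighbouring site, or begin and end in other exons. Short reads rarely show which choices lie on the same molecule, while a read of the whole transcript does. An added or lost stretch whose length is a multiple of 3 keeps the reading frame, and a stop codon well before the last junction is a known mark of transcripts that nonsense-mediated decay can remove.

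The tables held 452489 and 463210 endogenous reads. The 5 cortex markers summed to 59301 and 47624 CPM (reads scaled to the library's endogenous total), and the 5 chromaffin markers to 10478 and 15399 CPM, so both parts of the gland were present. The 4 adipocyte markers summed to 6763 and 5917 CPM and the 2 red blood cell markers to 3837 and 3217 CPM. All 8 pancreas acinar markers had reads in replicate 2, 6172 CPM together, and none had a read in replicate 1. The 4 liver markers summed to 2.21 and 402 CPM. With at most 1 read per gene in replicate 1, these pancreas and liver markers could hold no recurrent chain.

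The sequences below show the places where leading recurrent chains depart from the annotation, each read 5′ to 3′ from M21 transcripts (GENCODE, build mm10). The first pair shows the bases, in capitals, that the annotation writes as a 4-base gap in the antizyme genes and that the recurrent chains read through, at chr10:80828292-80828295 (plus strand) and chr9:65686269-65686272 (plus strand).
Oaz1: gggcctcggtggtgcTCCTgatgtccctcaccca
Oaz2: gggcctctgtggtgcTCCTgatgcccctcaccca

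The next 2 sequences show, in capitals, annotated exons of 6 and 5 bases that the leading chain of each gene left out, at chr6:124716425-124716430 and chr9:25265302-25265306 (both plus strand).
Phb2: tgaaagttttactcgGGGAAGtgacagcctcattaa
Sept7: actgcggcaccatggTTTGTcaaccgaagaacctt

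The next 4 sequences show the 3 bases, in capitals, that lie between neighbouring acceptor sites. The exon either begins with the capitals or just after them. They lie at chr5:33248684-33248686 (Ctbp1, minus strand), chr3:95738114-95738116 (Ecm1, minus), chr10:81565472-81565474 (Aes, plus) and chr11:120479087-120479089 (Hgs, plus).
Ctbp1: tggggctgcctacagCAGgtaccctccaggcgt
Ecm1: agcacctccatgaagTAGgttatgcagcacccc
Aes: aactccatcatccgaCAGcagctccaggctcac
Hgs: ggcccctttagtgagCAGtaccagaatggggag

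The last 4 sequences show whole coding exons, in capitals, that recurrent chains of steroid enzymes and of Cd47 left out. The exons are chr17:34804044-34804133 and chr17:34803348-34803443 for Cyp21a1 (minus strand), chr9:58018194-58018393 for Cyp11a1 (plus strand) and chr16:49869018-49869080 for Cd47 (plus strand).
Cyp21a1, 90-base exon: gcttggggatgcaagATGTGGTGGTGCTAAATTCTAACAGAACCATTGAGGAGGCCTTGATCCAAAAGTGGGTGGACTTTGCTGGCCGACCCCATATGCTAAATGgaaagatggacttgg
Cyp21a1, 96-base exon: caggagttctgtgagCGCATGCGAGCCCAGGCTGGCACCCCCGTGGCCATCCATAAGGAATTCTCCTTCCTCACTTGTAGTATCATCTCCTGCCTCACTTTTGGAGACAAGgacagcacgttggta
Cyp11a1, 200-base exon: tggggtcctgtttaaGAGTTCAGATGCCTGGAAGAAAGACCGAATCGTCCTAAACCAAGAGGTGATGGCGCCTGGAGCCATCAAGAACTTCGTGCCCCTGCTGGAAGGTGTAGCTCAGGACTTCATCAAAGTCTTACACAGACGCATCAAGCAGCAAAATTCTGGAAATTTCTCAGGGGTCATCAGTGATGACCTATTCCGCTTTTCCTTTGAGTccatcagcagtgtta
Cd47, 63-base exon: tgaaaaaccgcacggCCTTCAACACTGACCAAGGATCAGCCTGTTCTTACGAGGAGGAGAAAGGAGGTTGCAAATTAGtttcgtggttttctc

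Most recurrent chains were thinly read. They had a median of 7 reads over both libraries, 85 had at least 10 reads in each, and 403 had exactly 2 reads in their lower library. Just inside the read minimum lay 146 chains with 2 reads in each library; just outside lay 771 with 1 read in each and 792 with 1 read in one library and more in the other. Together the 890 chains held 7326 reads in replicate 1 and 6400 in replicate 2, which is 39.9% and 41.3% of NIC reads and 1.62% and 1.38% of endogenous reads.

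Of the 890 chains, 726 (81.6%) used annotated introns throughout and were new only in their combination. The other 164 carried an intron that is not annotated, and in 119 of these both ends of every intron were annotated sites. The remaining 45 chains had at least 1 splice site outside M21 despite their class. The 164 chains held 166 distinct new introns, of which 98 also had reads in other unannotated models, 63 of them in both libraries.

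Against the closest annotated form, 183 chains differed in the first exon alone, 140 by intron retention, 127 by exon skipping, 123 by another acceptor, 95 by another donor and 78 by another last exon. A further 39 chains gained an exon, 56 mixed several kinds of change, 47 had a complex change, and 2 had no annotated form to compare. New junctions were found in 66 of the 127 exon-skipping chains; keeping an intron creates no junction, so the retention class has almost none by definition. Compared with another form, classes shifted: 648 chains kept their class when compared with the most-read form of the gene, but 107 then differed in the first exon alone, fewer than by exon skipping (137), another acceptor (131) or retention (122), and 137 were mixed.

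**Figure D1:**
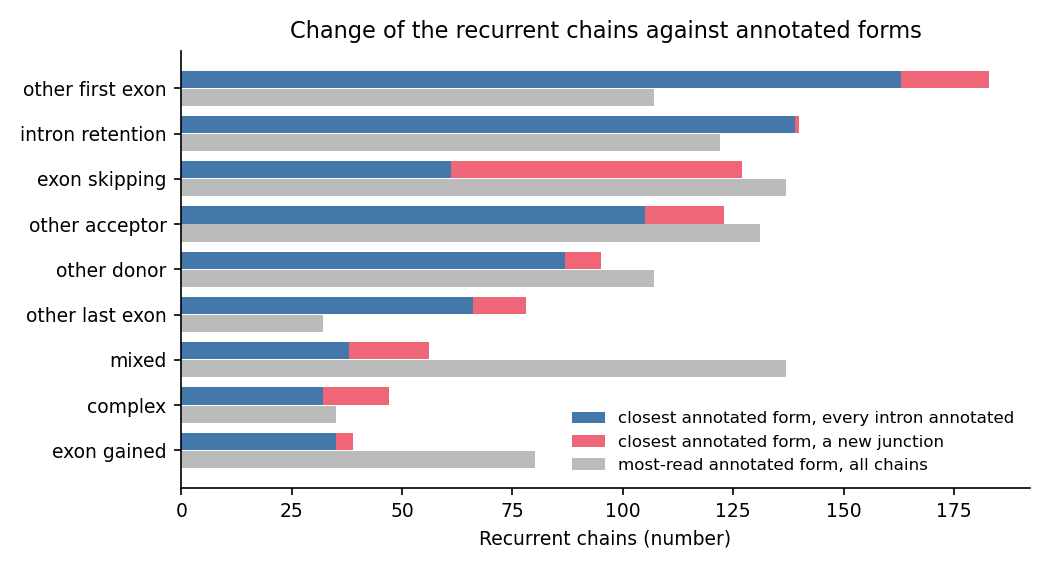
Number of recurrent NIC chains per class of change. The coloured bar compares each chain with the annotated form sharing most introns, split into chains whose introns are all annotated and chains with a new junction; the grey bar compares with the gene's most-read form. New junctions are found in 66 of the 127 exon-skipping chains; the retention class has almost none by definition.

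Chains that were read once, in 1 library, had another make-up. Of these 10887 chains, 28.5% were intron retention against 15.7% of the recurrent ones, and 19.2% were mixed against 6.29%. Another first exon accounted for 8.92% of them against 20.6%, and another acceptor for 7.68% against 13.8%. These shares are descriptions, since chains of a gene share reads of the same library.

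The 2 exon-skipping chains with the largest shares of a well-read gene each left out a very short exon. Phb2, a prohibitin of the inner mitochondrial membrane, had 135 reads of the chain without the 6-base exon among 140 full-length reads in replicate 1, and 120 among 122 in replicate 2. Full-length reads are those of the Known, NIC and NNC classes, the last for models with an unannotated splice site. The chain held 97.4% ± 1.37 (SD, n = 2) of them, and the annotated form with the exon, Phb2-201, had 0 reads in both. The predicted protein had 297 residues in place of 299. In Sept7, a septin of the cytoskeleton, the chain without the 5-base exon had 35 of 41 and 26 of 26 full-length reads, joined by an unannotated junction, and Sept7-201 with the exon again had 0 reads. Followed from the start codon of Sept7-201, this chain met a stop after 25 residues, where the annotated protein has 437. Skipped exons this short were few, with 3 of 10 bases or less. The aligner is not named, and how reads were placed over exons this short was not tested.

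Longer exons were left out in part of the molecules. Cd47 is a cell-surface protein that restrains engulfment by macrophages. A Cd47 chain without the 63-base exon shown above had 23 of 45 reads (51.1%, Wilson 95% interval 37.0 to 65.0) in replicate 1. In replicate 2 it had 33 of 58 reads (56.9%, 44.1 to 68.8). The fully annotated form Cd47-201 had 5 and 15 reads, and the shortened chain was the most read in both libraries. Agap3, which regulates Arf proteins, had a chain without 2 neighbouring exons of 309 bases in all, in 21 of 28 and 17 of 27 full-length reads. Both skipping junctions are annotated. Here and below, such counts are of 1 chain, and other forms of the gene can carry the same change.

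Over all classes, 137 exon-skipping changes were found in 136 chains, 124 of them of 1 exon and 13 of 2 or 3. The junction that joins the flanking exons was itself annotated in 65 and new in 72. Counted once each, 60 of 129 skipped stretches (46.5%) had a length divisible by 3, beside 39.4% of 115140 internal exons of coding forms of genes with full-length reads. For stretches of 1 exon alone it was 52 of 117 (44.4%). Of all stretches inside the coding sequence the counts were 55 of 104 (52.9%), beside 40.0% of 105977 coding exons. The share was 60.0% (27 of 45) with an annotated junction and 47.5% (28 of 59) with a new one. The median skipped stretch in the coding sequence was 97.5 bases, and the median coding exon 119 bases.

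The most-read chain of all, of Oaz1, read through 4 bases that M21 lists as an intron. Oaz1, an antizyme that binds ornithine decarboxylase and directs it to breakdown, is made by a shift of the ribosome's reading frame at the bases TCCTga shown above, and M21 writes that shift as a 4-base gap in the transcript. The chain that reads through the gap had 877 of 917 full-length reads in replicate 1 and 850 of 879 in replicate 2, or 96.2% ± 0.752 (SD, n = 2), and Oaz1-201 with the gap had 0. Read without a frame shift, this chain reaches a stop codon after 68 residues, where the annotated protein has 226. Oaz2, its paralog, had 129 of 142 and 82 of 96 reads in the same arrangement, with a stop after 32 of 188 residues. In all, 4 of the 150 distinct retained introns were shorter than 10 bases.

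Outside Oaz1 and Oaz2, 137 chains were classed as intron retention. They held 999 reads in replicate 1 and 531 in replicate 2. The 150 distinct retained introns had a median of 280 bases, beside 366 bases over 1193 introns of the read annotated forms in the same genes, and 131 lay inside the coding sequence. Of the 150, 3 were the first and 1 the last intron of their form; a chain that lacks a terminal intron alone is a part of the annotated chain and belongs to the class ISM by definition. At least 2 introns were kept in 27 chains.

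Among the retention chains with the most reads outside the antizymes was that of Cyp11a1, the enzyme that starts steroid synthesis from cholesterol. It kept the 478-base intron 7 of 8 (chr9:58025607-58026084) in 106 of 5680 and 31 of 4168 full-length reads. Slc25a3, the mitochondrial phosphate carrier, kept its 1514-base intron 2 of 7 in 53 of 955 and 3 of 647. Srsf5, an SR splicing factor, kept its 1229-base intron 5 of 7 in 32 of 89 and 14 of 78. In each of these genes replicate 1 had the larger share.

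Th, tyrosine hydroxylase, which makes the first step of catecholamine synthesis in chromaffin cells, had 3 such chains. Th_N1, the most read, kept introns 5 and 6 of 12 together and had 43 of 1035 reads in replicate 1 and 3 of 1200 in replicate 2. Th_N2 kept intron 8 as well and had 33 and 3 reads. The fully spliced form Th-201 had 878 and 1154 reads, and the chromaffin markers together were also higher in replicate 2. In a whole gland, fewer cells of a type and less RNA per cell cannot be told apart.

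The most frequent distance between a chain's acceptor and the annotated one was 3 bases. Of 128 distinct acceptor shifts, 58 were exactly 3 bases, 5 were 4 bases, 2 were 5 bases, and 42 were over 30. None was 1 or 2 bases. Of 98 distinct donor shifts, 1 was 3 bases and 60 were over 30. The 3 bases between the acceptors were CAG in 43 places, AAG in 9 and TAG in 4; in the other 2 the annotated exons did not cover them. Tandem acceptors of this kind, known as NAGNAG sites, place an AG at the end of both possible introns. The form then varies by 3 bases, the length of 1 codon where they lie in the coding sequence.

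**Figure D2:**
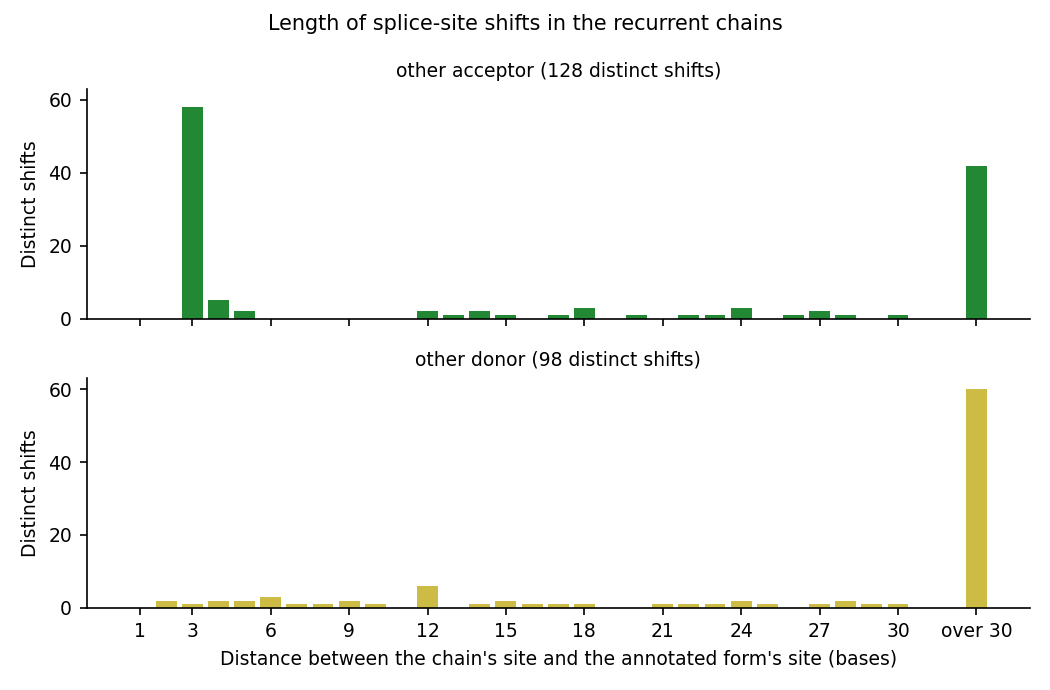
Distance between the splice site of a recurrent chain and that of the closest annotated form, in bases, for distinct acceptor shifts (upper) and donor shifts (lower). The bar at 3 bases holds 58 of 128 acceptor shifts and 1 of 98 donor shifts; shifts over 30 bases are pooled at the right.

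At 41 of the 58 places the recurrent chain had the shorter exon. The 60 chains whose change was this shift alone had a median of 16.4% of their gene's full-length reads. For the 37 of them whose genes had 20 or more full-length reads in both libraries, the share ran from 0.655% to 71.3% with a median of 8.28%. Ctbp1, a transcriptional corepressor, had a chain with the longer variant in 101 of 171 reads (59.1%, 51.6 to 66.2) and 87 of 145 (60.0%, 51.9 to 67.6). This chain had 430 predicted residues in place of 429. The annotated Ctbp1-201, which also holds the 3 bases, had a further 37 and 24 reads. Hgs, an endosomal sorting protein, had a chain with the shorter variant in 33 of 42 and 25 of 39 reads. In Ecm1, an extracellular matrix protein, a chain with the shorter variant had 60 of 291 and 35 of 216 reads. A second recurrent chain with the same acceptor had 19 and 20. In Aes, a corepressor of the Groucho family, a chain with the shorter variant had 42 of 730 (5.75%) and 38 of 705 (5.39%). The shares of these single chains thus ran from a small minority to the leading form. The intervals of the 2 libraries overlapped for the first-named chain of each of the 4 genes.

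Other acceptors moved further. Fdxr, ferredoxin reductase, which passes electrons towards the mitochondrial steroid enzymes, lost 54 bases in frame in 34 of 536 and 25 of 427 reads, leaving 476 of 494 residues. Ifi27 lost 60 bases in frame in 18 of 452 and 43 of 666. Inside the coding sequence, 72 of 92 acceptor shifts (78.3%) were divisible by 3, against 27 of 48 donor shifts (56.2%). Without the shifts of exactly 3 bases the counts were 21 of 41 (51.2%) and 26 of 47 (55.3%), so the larger acceptor share came from the 3-base shifts.

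Of the 98 donor shifts, 48 lay inside the coding sequence. Cops7a, a subunit of the COP9 signalosome, had a chain in which an exon before the start codon was 117 bases shorter in 64 of 93 and 46 of 67 reads (68.7% ± 0.113, SD, n = 2), with the same predicted 275 residues. Coro1b, which binds actin, used 1 such donor in 51 of 90 and 34 of 85 reads and a second chain, from a donor 7 bases away, in 15 and 20. Hspd1, the mitochondrial chaperonin, shortened its leader by 210 bases in 32 of 777 and 14 of 558. In Crat, carnitine acetyltransferase, a chain with an exon 117 bases longer lacked the annotated start codon, in 29 of 68 and 49 of 130 reads.

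Among chains with another first exon, Mpc1, a subunit of the mitochondrial pyruvate carrier, stood out by its share. Its chain had 150 of 164 and 204 of 215 full-length reads (93.2% ± 2.42, SD, n = 2) and used an unannotated intron between annotated sites, chr17:8283962-8296534. The 5′ end of this chain differed by 858 bases between the libraries, and the longer extent was used. Its closest form, Mpc1-204, is a noncoding retained-intron model, and the annotated start codon of Mpc1-202 was not in the chain. Against Mpc1-202, the most-read annotated form with 6 and 3 reads, the chain was classed as exon skipping. Aldoa, aldolase of glycolysis, had 118 of 1740 and 117 of 1653 reads in a chain with the same 364-residue coding sequence. Fmo1, a flavin monooxygenase, had 23 of 26 and 24 of 34. Cdkn1c, an imprinted inhibitor of cell division, had 65 of 241 reads (27.0%) and 39 of 146 (26.7%), with 347 predicted residues in place of 335.

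Chains with another last exon included Smdt1, a regulator of the mitochondrial calcium uniporter, with 84 of 174 and 99 of 204 reads (48.3% and 48.5%). In this chain 1 splice site is outside M21. Its closest form had 0 and 1 reads, and against the most-read Smdt1-201 (72 and 85 reads) it was classed as another acceptor. Ptov1 had 62 of 137 and 67 of 146, and Pnpla3, a lipid hydrolase, 26 of 62 and 29 of 60. Xpnpep1, an aminopeptidase, had 38 of 60 and 22 of 39 reads in a chain whose predicted protein ended after 59 residues. The closest form had 1 read in each library. Against the most-read Xpnpep1-209 (20 and 13 reads) the chain was classed as exon skipping. Gained exons were fewer, and 20 of 29 of those inside the coding sequence (69.0%) were divisible by 3. Nprl3, which acts in nutrient sensing, gained a 39-base exon in 15 of 34 and 17 of 28 reads, and Aplp2, a relative of the amyloid precursor protein, gained 36 bases in 16 of 177 and 11 of 152.

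Some complex changes are different placements of the same sequence. In Gbe1, the glycogen branching enzyme, the recurrent chain had all 32 full-length reads in replicate 1 and 22 of 26 in replicate 2, but its intron was that of Gbe1-203 moved by 4 bases at both ends. The spliced bases are identical, so reads cannot tell these placements apart. Mul1 showed the same with a shift of 1 base. In Csnk1g2, a casein kinase, 67 of 88 and 66 of 78 reads followed a chain with an extra intron inside an annotated exon, and the coding sequence matched that of another annotated form. Uchl3, a ubiquitin hydrolase, had a complex chain in 28 of 32 and 24 of 28 reads, which met a stop after 23 of 230 residues.

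Some of these chains were the most-read full-length form of their gene. Where a gene had 20 or more full-length reads in both libraries, its recurrent chains, 602 in all, had a median share of 6.63%, and 229 of them lay under 5%. The leading form of the gene in both libraries was a recurrent chain in 43 cases, ties included, and 18 of the 602 held at least 50% in each library. The lowest share among the 43 was that of Bag6, with 2 of 22 and 4 of 32 full-length reads. Dhcr7 had 42.4% and 46.2% of full-length reads in its leading chain, but 4.14% and 4.72% of all endogenous reads of the gene. By class the 43 were 10 with another acceptor, 7 with another first exon, 6 each with exon skipping and another last exon, 4 complex, 4 mixed, 3 with intron retention, 2 with another donor and 1 with a gained exon. The 3 retention chains were Oaz1_N1, Oaz2_N1 and Nadk2_N1, which read through annotated gaps of 4, 4 and 1 bases, so none of the 43 was the retention of a longer intron alone. One of the complex chains was that of Gbe1, with the spliced sequence of the annotated form. The closest annotated form had no read in 175 of the 890 cases.

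**Figure D3:**
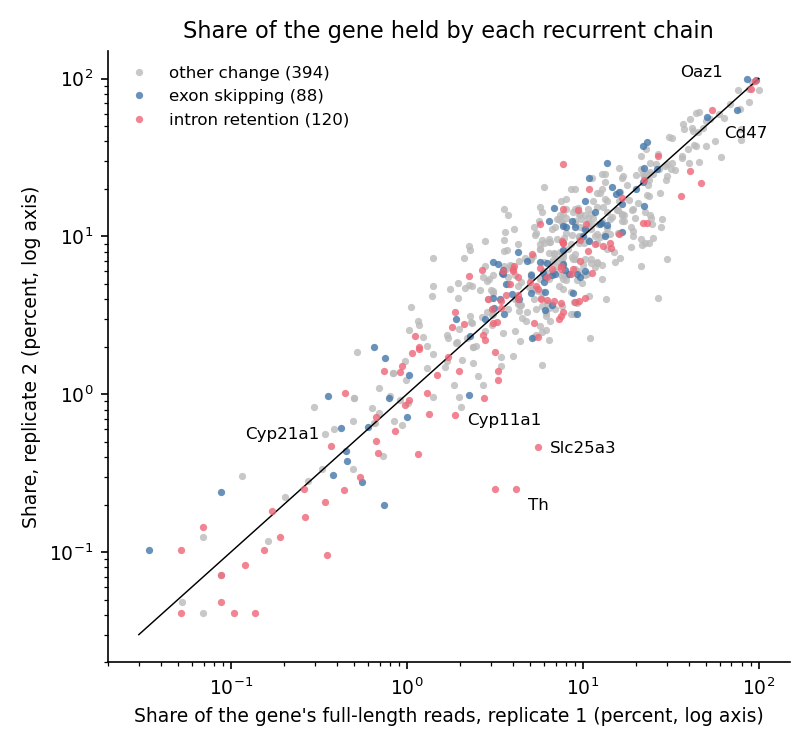
Share of the gene's full-length reads held by each of 602 recurrent chains in replicate 1 (x axis) and replicate 2 (y axis), both in percent on log axes, for genes with 20 or more such reads in both libraries; the line marks equal shares. Most points lie along the line, and the named Th, Slc25a3 and Cyp11a1 chains, all intron retention, lie below it.

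Recurrent chains were found more often in deeply read genes. Of 4671 genes with 10 or more full-length reads in both libraries, 583 (12.5%) had one. The share rose from 7.7% in the fifth of genes with the fewest reads to 17.5% in the fifth with the most. The rule asks for at least 2 reads in each library, which a chain of a deeply read gene reaches more easily. This rise is thus built into the selection and is given as a description. Among gene lists, chosen with earlier results of these data known, 14 of 38 sufficiently read genes of splicing and RNA binding (36.8%) and 6 of 18 of steroid synthesis (33.3%) had a recurrent chain. Imprinted genes had 3 of 9, cholesterol and lipoprotein genes 6 of 20, adipocyte genes 3 of 13, cytoskeleton 3 of 14, chromaffin genes 4 of 20 and glycolysis 2 of 12. Antioxidant and iron genes (3 of 24, 12.5%) and mitochondrial respiration (8 of 72, 11.1%) lay near the 12.5% of all 4671 genes. Mitochondrial carriers had 1 of 15, and ribosomal proteins had 4 of 76 (5.26%). Of the 4 red blood cell genes and the 1 liver gene read deeply enough, none had a recurrent chain, and no pancreas gene was read deeply enough in both libraries. The part of depth in these shares was not tested.

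Cyp21a1, the steroid 21-hydroxylase, had 14 recurrent chains, more than any other gene. They held 129 of 5790 full-length reads in replicate 1 (2.23%) and 92 of 4838 in replicate 2 (1.9%), against 5363 and 4581 reads for the annotated form Cyp21a1-201. The chain without the 90-base exon had 26 and 21 reads and the chain without the 96-base exon 22 and 15; both keep the frame, with 457 and 455 predicted residues in place of 487. Each used a junction that is not annotated. Mice carry a near-identical Cyp21a1 pseudogene copy, and how the authors divided reads between the copies was not stated.

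Cyp11a1 had 9 recurrent chains with 198 of 5680 (3.49%) and 88 of 4168 reads (2.11%). The chain without the 200-base exon had 34 reads (0.599%, 0.429 to 0.835) and 26 reads (0.624%, 0.426 to 0.912), and its frame ended after 190 of 526 residues. The shares of this skipping chain overlapped between libraries, whereas those of the Cyp11a1 retention chain, 1.87% (1.55 to 2.25) and 0.744% (0.524 to 1.05), did not. Srd5a2, a steroid 5-alpha-reductase, had a chain without a 151-base exon and with another last exon in 30 of 1305 and 39 of 1243 reads; 2 of its splice sites are outside M21, and it met an early stop after 207 of 254 residues. Of the 29 recurrent chains in the steroid list, 14 were of Cyp21a1 and 9 of Cyp11a1. Meg3, an imprinted noncoding RNA with 7 recurrent chains, had 60 of 130 (46.2%) and 64 of 122 (52.5%) reads in them.

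The predicted protein could be followed from the annotated start codon in 725 of the 890 chains. Of these, 269 (37.1%) kept the coding sequence of an annotated form and 183 (25.2%) changed it and returned to the annotated stop. A stop codon over 50 bases before the last junction was met in 211 (29.1%), and 62 (8.55%) had another stop. Of chains seen once, fewer could be followed, 6791 of 10887. Of these 6791, 52.2% met a stop over 50 bases before the last junction and 18.1% kept an annotated coding sequence. Over all chains, followed or not, such an early stop was met in 23.7% of the 890 recurrent chains and 32.6% of the 10887. Chains seen once also held more intron retention, 28.5% against 15.7%, and the part of this in the difference was not tested. The start codon was outside the chain in 90 recurrent cases, and annotated exons did not cover the sequence in 51.

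The outcome differed by class. Another first exon left an annotated coding sequence in 109 of 124 chains that could be followed (87.9%), and another donor in 45 of 85 (52.9%). In 58 of all 183 chains with another first exon, the annotated start codon was not in the chain. Over all 183, 59.6% kept an annotated coding sequence. Another acceptor changed the sequence within the frame in 66 of 120 (55.0%) and exon skipping in 50 of 111 (45.0%). Intron retention met an early stop in 88 of 97 (90.7%). These are readings of the sequence from 1 start codon, with no measure of protein; for Oaz1 and Oaz2 the early stop is the one that the frame shift passes.

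**Figure D4:**
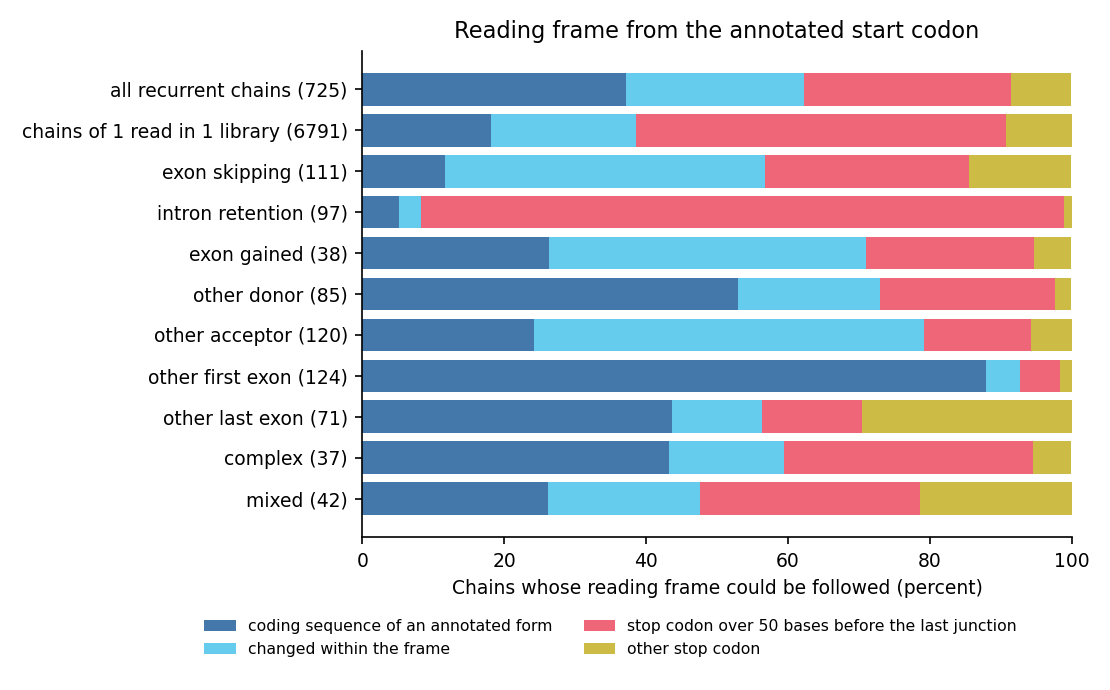
Predicted reading frame of recurrent NIC chains, in all and by class, beside chains read once in 1 library; bars give the percent of chains whose frame could be followed, with their number in parentheses. Among chains that could be followed, an early stop is met by 29.1% of recurrent chains, 52.2% of chains seen once and 90.7% of intron-retention chains. Over all chains, followed or not, it is met by 23.7% of recurrent chains and 32.6% of chains seen once.

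The last comparison asked whether a chain's share of its gene differed between the libraries, in a two-sided Fisher's exact test over 381 NIC chains with at least 10 reads summed. It compares 2 libraries, not conditions, and the read minimum keeps the most unequal chains out of the recurrent set. The share differed in 5 of 322 recurrent chains tested (1.55%), beside 2.1% of all chains tested, and in all 5 it was higher in replicate 1. All 5 were intron retentions. At an unadjusted p under 0.05 there were 23.

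Th_N1 held 4.15% (3.1 to 5.55) of full-length reads in replicate 1 and 0.25% (0.0851 to 0.732) in replicate 2, with an adjusted p of 1.35e-09 in Fisher's exact test. Th_N2 held 3.19% and 0.25% (adjusted p = 1.29e-06). The Slc25a3 chain held 5.55% (4.27 to 7.19) and 0.464% (0.158 to 1.35; adjusted p = 2.63e-07), and the Cyp11a1 retention chain 1.87% and 0.744% (adjusted p = 0.0001). C4a, a complement component with a near-identical neighbour in C4b, had 30 of 41 and 4 of 17 reads in a chain keeping intron 40 of 41 (adjusted p = 0.0442); with chains of 5 reads admitted to the test its adjusted p was 0.12, and over the 4 alternatives of the test it ran from 0.0124 to 0.12. The Srsf5 share, 36.0% and 17.9%, did not pass (adjusted p = 0.268). The leading chains of Cd47, Ctbp1 and Phb2 had adjusted p-values from 0.952 to 1 in the same exact test.

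Of 140 intron-retention chains, 80 had more reads in replicate 1, 36 had equal reads and 24 had more in replicate 2. Of the 750 other chains, 305 had more in replicate 1, 183 had equal reads and 262 had more in replicate 2. The median log2 ratio of CPM, replicate 2 over replicate 1 with 1 CPM added, was -0.52 for retention and -0.03 for the others; it was -0.03 for all recurrent chains, -0.02 for all NIC chains in both libraries and -0.03 for genes.

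**Figure D5:**
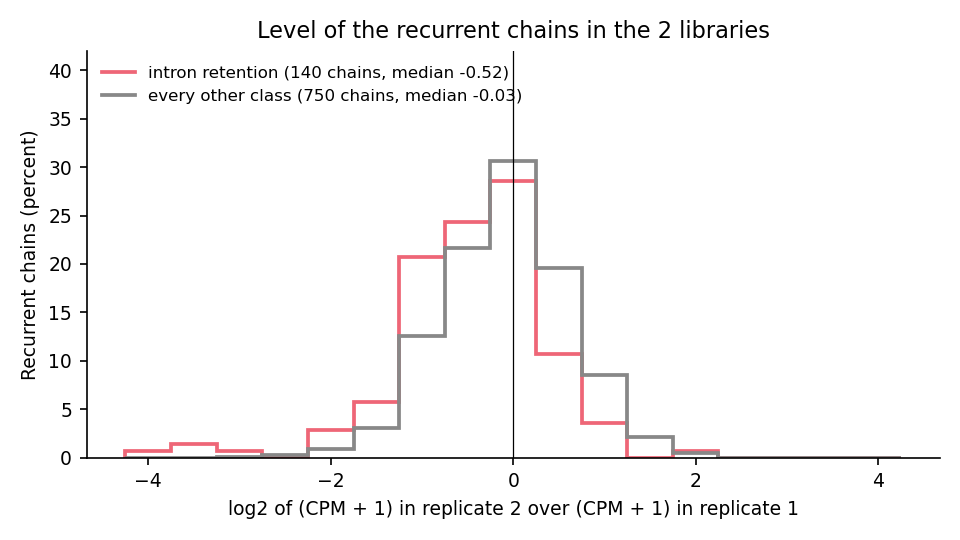
Distribution of the log2 ratio of CPM, replicate 2 over replicate 1 with 1 CPM added, for 140 intron-retention chains and 750 chains of every other class, in percent of each. The retention chains have a median of -0.52 and the others -0.03.

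NIC chains of retention outside the recurrent set also took a smaller part of replicate 2, with 0.86% of full-length reads in replicate 1 and 0.541% in replicate 2. Annotated retained-intron transcripts did not follow, at 1.01% and 1.13%. Reads of the Genomic class, which overlap a gene without its splicing, were 5.08% and 6.02% of endogenous reads. Replicate 2 was also the library with pancreas acinar reads. The part of RNA quality or of other tissue in the difference was not tested.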

How the data were processed

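Per the labels, RNA of whole adrenal gland was sequenced as long reads, 1 library per replicate. The authors deposited whole read counts per transcript model, not normalized, with model coordinates on mm10 and the annotation M21 per the deposited notes; per the file headers, models carry TALON classes (Known, ISM, NIC, NNC and others). The sources used here name no aligner and no tool version. Spike-ins were left out.

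From these files, NIC models were matched by chromosome, strand and intron chain and compared with annotated forms. Full-length reads are Known, NIC and NNC reads of the gene, and a chain's reads in the share test count under NIC or NNC. Fisher's exact test (scipy 1.17.1) was adjusted by Benjamini-Hochberg. Shares carry Wilson 95% intervals, which cover counting error only; reads without molecular identifiers are not independent molecules. Sequences and reading frames were read from M21 transcripts. TMM (edgeR 4.0.16) and size factors (DESeq2 1.42.0) served as alternative scales. The class comparison was checked on built chains, and the share test on simulated counts. The simulated counts had no spread between libraries beyond counting error, so they cannot show how the test behaves under such spread.

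The chains and gene lists were chosen with earlier results of these data known. The rule for named chains takes up to 6 most-read per class, up to 8 with the largest mean share in genes of 20 or more full-length reads per library, up to 8 called by the test, and up to 3 most-read per gene list. Chains and genes outside it, such as Cyp21a1_N2, Mul1, Akr1b7, Akr1b8, Capn2 and the gene totals of Meg3, were chosen after their values were seen.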

Additional observations from a re-analysis of the deposited data

How the results depend on the processing

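The number of recurrent chains depended on the read minimum: 2453 at 1 read and 239 at 5 reads in each library, and 1927 to 2178 when 1 library alone was used. Both ends lay within 100 bases between the libraries in 748 of the 890 chains. Exon skipping made up 17.2% at 1 read. Intron retention made up 19.3% at 1 read and 12.6% at 5 reads, and 16.7% without replicate 1 to 21.3% without replicate 2, beside 15.7%. Another first exon, first in the main comparison at 20.6%, was 18.2% at 1 read and 17.0% without replicate 2, below retention in both. The median share of the gene was 9.84% over all endogenous reads of the gene in place of 11.7%, and 11.1% to 11.5% in 1 library. The median log2 ratio of all recurrent chains was 0.01 with TMM factors, 0.0 with size factors, -0.03 with 0.5 CPM and -0.02 with 5 CPM added. For retention it ran from -0.57 to -0.32. The share test called 4, 7 and 5 recurrent chains with chains of 5 reads, chains of 20 reads and all endogenous reads of the gene, and 7 with NIC rows alone. Chosen after seeing the data were NIC rows alone, chains without an unannotated site, chains outside Oaz1 and Oaz2, the scales for retention, and 1 library alone for the median share and the skipped exons. With 5 reads the C4a call was lost. The share of skipped stretches divisible by 3 lay between 46.0% and 54.8% in every alternative setting that kept stretches of 1 and of more exons together. No paired analysis was possible because there is 1 group of 2 libraries, and leaving out a library leaves no share test and no ratio. A chain of 2 reads in each library is near the limit of this depth.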

Other observations

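Beside the 890 recurrent chains, 122 chains had at least 2 reads in each library but were classed NIC in one library and NNC in the other, 62 of them NIC in replicate 1 and 60 in replicate 2. Each of the 122 had at least 1 splice site outside M21. The most read were a pair of Hnrnpk chains, 78 and 48 reads classed NNC then NIC, and 72 and 42 reads classed NIC then NNC. Capn2, a calcium-dependent protease, had 42 of 42 full-length reads in replicate 1 and 29 of 33 in replicate 2 in such a chain. A further 26 chains were NIC in one library and ISM in the other. Of 32 NIC chains with at least 10 reads in one library and no NIC row in the other, 26 were listed there under another class and 6 were in no class.

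Of the 59 chains tested that were not recurrent, 3 differed between the libraries, and all were higher in replicate 1. Akr1b7, an aldo-keto reductase abundant in the adrenal cortex, had a NIC chain with 163 of 3318 full-length reads in replicate 1 and 1 of 2378 in replicate 2 (adjusted p = 3.13e-35 in Fisher's exact test). It missed the read minimum by 1 read. Akr1b8 had one with 15 of 202 and 0 of 140 (adjusted p = 0.0313), and Th one with 19 of 1035 and 1 of 1200 (adjusted p = 0.000525).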
